A study of Homo sapiens with 9 samples.

Results

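The genes described here are the 5 subunits of the transcription factor NF-κB (NFKB1, NFKB2, RELA, RELB and REL) together with 5 of its well-known target genes (NFKBIA, TNFAIP3, BIRC3, TNFAIP2 and ICAM1). They are 10 of the 23284 gene symbols measured, were chosen by name, and all 10 were above 0 in every library. Paired-end RNA-Seq was made from HT-29, an established human colon adenocarcinoma line grown as monolayers, so the data come from 1 line and from no normal colon. The 9 cultures formed 3 groups of 3: 0 µM 5-Aza, which received the vehicle DMSO, 5 µM 5-Aza and 10 µM 5-Aza, all treated for 5 days according to the methods of the study. 5-Aza (5-Aza-deoxycytidine) is a cytidine analog that is built into DNA and traps DNA methyltransferases, so that methylation is lost as cells divide. Values are FPKM, that is fragments per kilobase of transcript, divided by a library term that the sources used here do not give. Their size shows that the term is not the usual one, so they are relative values, to be compared between genes per length and between libraries but not with FPKM of other studies.

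The 5 NF-κB subunits share a Rel homology domain and act as dimers. NFKB1 and RELA encode p105/p50 and p65, the pair of the canonical pathway, and NFKB2 and RELB encode p100/p52 and RelB, the pair of the non-canonical pathway. In resting cells IκB proteins, of which NFKBIA encodes IκBα, hold the dimers in the cytoplasm. The IKK complex marks IκB for degradation when cytokine receptors or Toll-like receptors are engaged, and the freed dimers bind kappa B sites and switch on target genes. NFKBIA and TNFAIP3 are among these targets and act back on the pathway, so their transcripts are widely used as a readout of NF-κB activity in intestinal epithelium.

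The promoters of these genes were searched on both strands for the kappa B consensus motif of 10 bases (GGG, a purine, any 2 bases, 2 pyrimidines, CC). Windows ran from 250 bases before to 50 bases after each RefSeq start site (GRCh38.p14 table). Of the 10 genes, 9 had 13 promoter windows, and 7 of these windows (53.8%), belonging to 6 genes, held a match, against 11.3% of all 35116 windows of the same length. NFKB1, NFKB2, REL, NFKBIA, TNFAIP3 and BIRC3 had a match, and no match lay in the windows of RELA, TNFAIP2 and ICAM1. The stretches below show how matches lie in these promoters: single in NFKB1 and NFKBIA, overlapping on both strands in REL and in start 2 of NFKB2, side by side in TNFAIP3 and spaced apart in BIRC3. NFKB2 held 2 further matches that are not shown, at -78 relative to start 2 and at -176 relative to start 3. Each stretch reads 5′ to 3′ in the direction of the gene with the match in capitals, and positions are on GRCh37 by exact match to that build.
NFKB1, chr4:103422457-103422486, plus strand: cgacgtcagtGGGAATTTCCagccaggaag
NFKB2, start 2, chr10:104154218-104154247, plus strand: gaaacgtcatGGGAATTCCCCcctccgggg
NFKB2, start 3, chr10:104155431-104155460, plus strand: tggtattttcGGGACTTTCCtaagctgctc
REL, chr2:61108652-61108681, plus strand: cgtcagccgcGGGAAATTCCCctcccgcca
NFKBIA, chr14:35874007-35874056, minus strand: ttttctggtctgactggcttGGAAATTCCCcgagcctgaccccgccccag
TNFAIP3, chr6:138188325-138188354, plus strand: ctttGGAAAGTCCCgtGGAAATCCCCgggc
BIRC3, chr11:102187996-102188109, plus strand: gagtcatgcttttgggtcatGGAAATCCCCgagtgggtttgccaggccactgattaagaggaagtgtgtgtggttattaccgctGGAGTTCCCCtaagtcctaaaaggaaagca
The stretches of NFKB2, REL and TNFAIP3 overlapped an annotated exon of the gene, and the others overlapped none. The windows were also rich in CG dinucleotides, the target of DNA methylation: 12 of 13 held more than the median of 14 over all windows, with a range from 7 in the first RELA window to 48 in the second. Methylation itself was not measured in these libraries. A match is a description of the sequence and not evidence of binding. Sites that depart from the consensus were not searched for, so a window without a match may still hold a kappa B site.

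In the control, RELA was the most abundant of the 10 transcripts per length and TNFAIP3 the least. Mean FPKM were 624029 ± 75950 (SD, n = 3) for RELA, 443111 for TNFAIP2, 310787 for NFKBIA, 147388 for NFKB1, 106625 for RELB, 96743 for NFKB2, 51646 for ICAM1, 34376 for REL, 15231 for BIRC3 and 5248 ± 974 (SD, n = 3) for TNFAIP3. Neighbours in this order did not overlap in their replicate values, with the exception of RELB and NFKB2. Among all symbols counted from the highest FPKM, the rank of RELA lay between 1391 and 1946 and that of TNFAIP3 between 11788 and 13293 over the 9 libraries. The estimated number of fragments behind a control value was 34 to 57 for TNFAIP3 and 121 to 224 for BIRC3, and at least 171 for each of the others, so counting error weighs most on TNFAIP3.

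**Figure D1:**
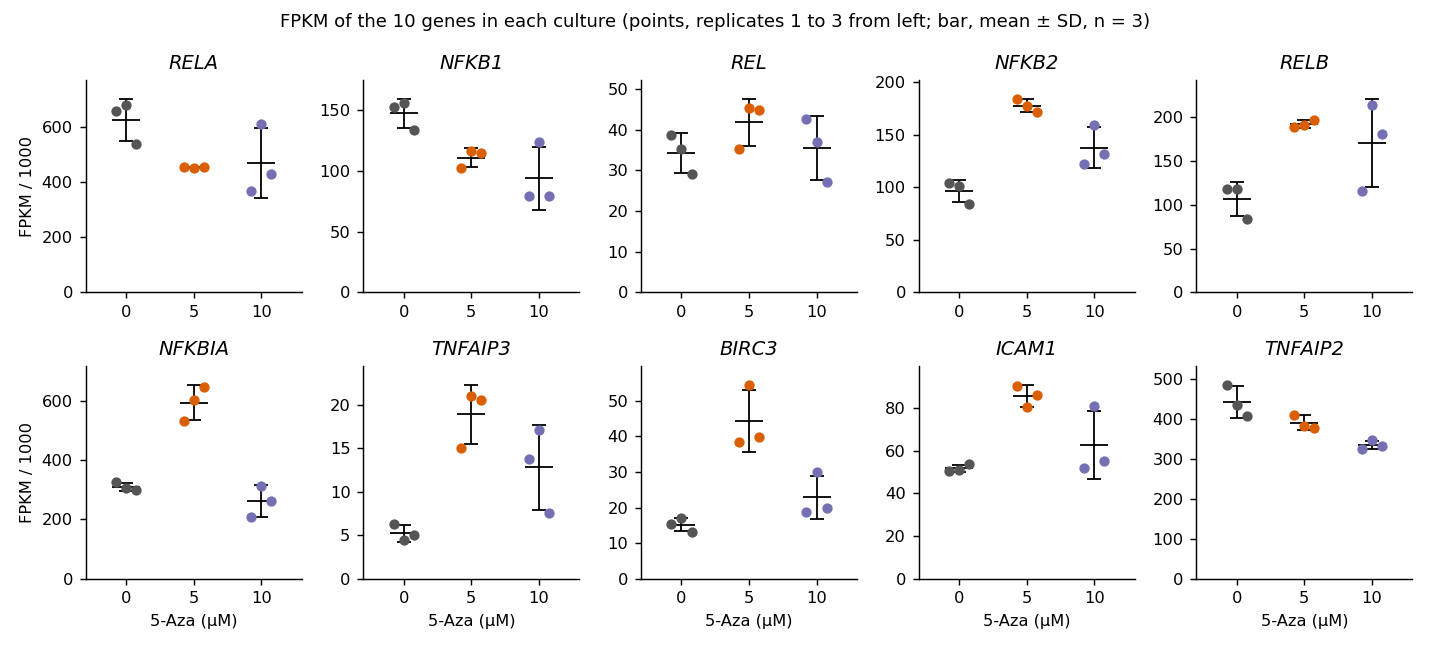
FPKM/1000 (vertical axes, each from 0) against 5-Aza concentration in µM for the 10 genes, with 1 point per culture and bars for the mean ± SD (n = 3). NFKBIA, TNFAIP3, BIRC3, ICAM1, NFKB2 and RELB lay above the control in all 3 cultures at 5 µM, RELA and NFKB1 lay below it, and at 10 µM replicate 2 was the highest of its group for 9 of the 10 genes.

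The comparison of 5 µM vs. 0 µM asks which transcripts differ after the lower concentration. The non-canonical subunits and the feedback targets rose and the canonical subunits fell. Of the 10 genes, 8 passed an adjusted p of 0.05 (limma with Benjamini-Hochberg adjustment over all genes), 6 higher and 2 lower, and the same 8 did not overlap between groups. Over the 20051 genes tested, 21.3% passed higher and 17.7% passed lower, and 29.4% and 23.2% lay wholly above and below the control. Of the genes tested, 15418 were above 0 in all 6 cultures, as the 10 genes were, so these shares also count genes listed at 0 in some cultures. With the 2-fold limit added, 2 genes, TNFAIP3 and BIRC3, were called higher and none lower, where 14.1% and 2.17% of all genes were called higher and lower. Log2 differences are on the log2(FPKM + 1) scale throughout. In bulk RNA, fewer cells with a transcript and less of it per cell cannot be told apart.

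RELA (chr11:65421070-65430561, minus strand) encodes p65, the subunit with the strongest transactivation domain of the canonical dimer. Its FPKM was 656997, 677924 and 537165 in the control, 454648, 451865 and 453635 at 5 µM, and 365768, 610434 and 428616 with 10 µM. The 5 µM cultures lay close together and below the control, and the 10 µM cultures spread from below the 5 µM group to within the control range. From 0 µM to 5 µM RELA fell by 0.45 on the log2 scale (SE 0.10, adjusted p = 0.0131, limma with Benjamini-Hochberg adjustment). This call missed the limit when 5 µM replicate 3 was left out (adjusted p = 0.0511, limma) or all 9 samples shared one fit (adjusted p = 0.0945, limma).

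NFKB1 (chr4:103422487-103538459, plus strand), which encodes p105 and its processed form p50, followed RELA. Values were 152639, 155710 and 133814 FPKM in the control, 102491, 116443 and 114493 at 5 µM, and 79351, 124076 and 79181 with 10 µM. All 6 treated cultures lay below all 3 controls. NFKB1 fell by 0.41 from 0 µM to 5 µM (SE 0.09, adjusted p = 0.0148, limma with Benjamini-Hochberg adjustment). Without control replicate 1 or 2 the adjusted p of limma was above the limit (up to 0.0567), and in one fit of all 9 samples it was 0.115.

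REL (chr2:61108626-61158747, plus strand) encodes c-Rel, a subunit best known from lymphocytes. Its values of 38778, 35233 and 29116 FPKM in the control, 35172, 45285 and 44957 at 5 µM and 42615, 36940 and 27120 with 10 µM overlapped between all groups. The log2 difference of 5 µM vs. 0 µM was 0.28 with a 95% interval from -0.11 to 0.67 (adjusted p = 0.202, limma with Benjamini-Hochberg adjustment), so a rise of up to 0.67 cannot be set aside.

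NFKB2 (chr10:104153867-104162281, plus strand) encodes p100, both an IκB-like inhibitor and the precursor of p52. It measured 104130, 101734 and 84365 FPKM in the control, 184163, 177220 and 171908 at 5 µM, and 121907, 159836 and 131865 with 10 µM. The 3 groups did not overlap, with 10 µM in between. NFKB2 rose by 0.88 on the log2 scale from 0 µM to 5 µM (SE 0.10, 1.84-fold in mean FPKM, adjusted p = 0.00106, limma with Benjamini-Hochberg adjustment).

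RELB (chr19:45504719-45541450, plus strand), the usual partner of p52, moved with NFKB2. It measured 118323, 117914 and 83639 FPKM in the control, 188608, 190987 and 197066 at 5 µM, and 115357, 214118 and 181228 with 10 µM. At 10 µM replicate 1 lay among the controls and replicate 2 above the 5 µM group. The rise from 0 µM to 5 µM was 0.87 (SE 0.14, 1.80-fold in mean FPKM, adjusted p = 0.00469, limma with Benjamini-Hochberg adjustment).

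The composition of the subunit pool differed while its sum overlapped between groups. The 5 subunits together summed to between 868099 and 1088520 FPKM in the control, 965082 and 982059 at 5 µM, and 724998 and 1145400 with 10 µM. NFKB2 and RELB made up 20.1% ± 0.713 (SD, n = 3) of that sum in the control, 37.9% ± 0.629 at 5 µM and 34.1% ± 2.44 with 10 µM. RELA made up 61.8% ± 0.465, 46.4% ± 0.584 and 51.4% ± 1.62, in the same order. Both shares differed without overlap between every pair of groups, which gives an exact permutation p of 0.1 (2-sided), the smallest that 3 against 3 cultures allow.

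Ratios within a culture do not depend on the scaling between libraries. NFKB2 over NFKB1 was 0.682, 0.653 and 0.63 in the control, 1.8, 1.52 and 1.5 at 5 µM, and 1.54, 1.29 and 1.67 with 10 µM. RELB over RELA was 0.18, 0.174 and 0.156 in the control, 0.415, 0.423 and 0.434 at 5 µM, and 0.315, 0.351 and 0.423 with 10 µM. For both ratios the treated groups overlapped each other and lay wholly above the control, with ratios of means of 2.28 (NFKB2 over NFKB1) and 2.14 (RELB over RELA) for 10 µM vs. 0 µM. RELB over NFKB2 overlapped between all groups, with means of 1.1, 1.08 and 1.22. These quantities were chosen after the values were seen. Over 16 such quantities in 3 comparisons (48 tests) no permutation p could fall below 0.1, and the lowest Benjamini-Hochberg adjusted p was 0.15.

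**Figure D2:**
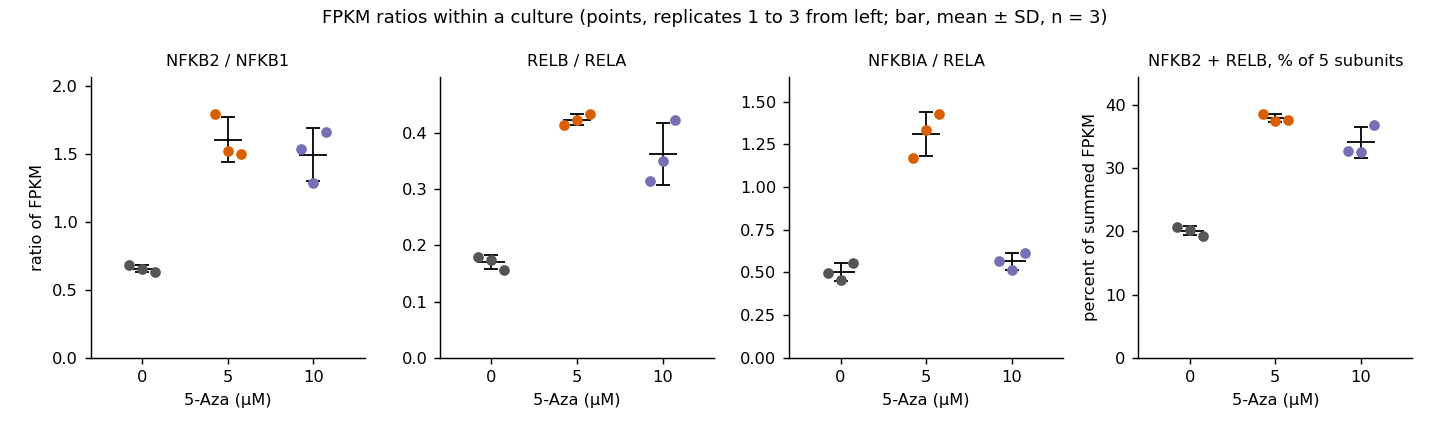
Ratios of FPKM within a culture (first 3 panels) and the percent of the summed subunit FPKM from NFKB2 and RELB (last panel) against 5-Aza in µM, with 1 point per culture and bars for the mean ± SD (n = 3). NFKB2 over NFKB1 and RELB over RELA stayed above the control at 10 µM, where NFKBIA over RELA (0.566 on average) overlapped the control (0.502).

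NFKBIA (chr14:35870285-35873955, minus strand), the gene of IκBα and a direct negative feedback target, measured 325531, 307728 and 299103 FPKM in the control, 532884, 602175 and 648035 at 5 µM, and 208278, 314357 and 262469 with 10 µM. All 5 µM cultures lay above every other culture, and the control and 10 µM groups overlapped. From 0 µM to 5 µM NFKBIA rose by 0.93 (SE 0.09, 1.91-fold in mean FPKM, adjusted p = 0.00067, limma with Benjamini-Hochberg adjustment). NFKBIA over RELA was 0.495, 0.454 and 0.557 in the control, 1.17, 1.33 and 1.43 at 5 µM, and 0.569, 0.515 and 0.612 with 10 µM.

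TNFAIP3 (chr6:138188351-138204451, plus strand) encodes A20, a ubiquitin-editing enzyme that shuts off signalling to IKK. It measured 6324, 4428 and 4993 FPKM in the control, 15023, 21026 and 20573 at 5 µM, and 13790, 17094 and 7539 with 10 µM. Every treated culture lay above every control. The rise from 0 µM to 5 µM was 1.85 on the log2 scale (SE 0.23, 3.60-fold in mean FPKM, adjusted p = 0.00169, limma with Benjamini-Hochberg adjustment), and the estimated fragments were 194 to 284 at 5 µM.

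BIRC3 (chr11:102188215-102210134, plus strand) encodes cIAP2, a ubiquitin ligase that protects cells in TNF receptor signalling. It measured 15362, 17061 and 13269 FPKM in the control, 38553, 54360 and 39973 at 5 µM, and 18802, 29915 and 19928 with 10 µM. The groups did not overlap, with 10 µM in between. It rose by 1.53 from 0 µM to 5 µM (SE 0.18, 2.91-fold in mean FPKM, adjusted p = 0.00132, limma with Benjamini-Hochberg adjustment). BIRC2, its close paralog with which reads could be shared, was far more abundant, and BIRC3 over BIRC2 was 0.0557 ± 0.00423 (SD, n = 3) in the control, 0.153 ± 0.0166 at 5 µM and 0.101 ± 0.0167 with 10 µM.

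ICAM1 (chr19:10381769-10397291, plus strand), an adhesion molecule for leukocyte integrins, measured 50271, 51107 and 53560 FPKM in the control, 90282, 80163 and 85759 at 5 µM, and 51619, 80599 and 55246 with 10 µM. It rose by 0.72 from 0 µM to 5 µM (SE 0.08, 1.65-fold in mean FPKM, adjusted p = 0.00112, limma with Benjamini-Hochberg adjustment). At 10 µM replicate 2 lay within the 5 µM range and the other two lay close to the control.

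TNFAIP2 (chr14:103587813-103603776, plus strand), a TNF-induced gene linked to membrane protrusions, differed from the other targets. It measured 485063, 436706 and 407564 FPKM in the control, 411936, 384385 and 376911 at 5 µM, and 326707, 347956 and 332553 with 10 µM. The log2 difference of 5 µM vs. 0 µM was -0.18 with a 95% interval from -0.38 to 0.02 (adjusted p = 0.135, limma with Benjamini-Hochberg adjustment), an interval that holds none of the rises of the other 4 targets.

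**Figure D3:**
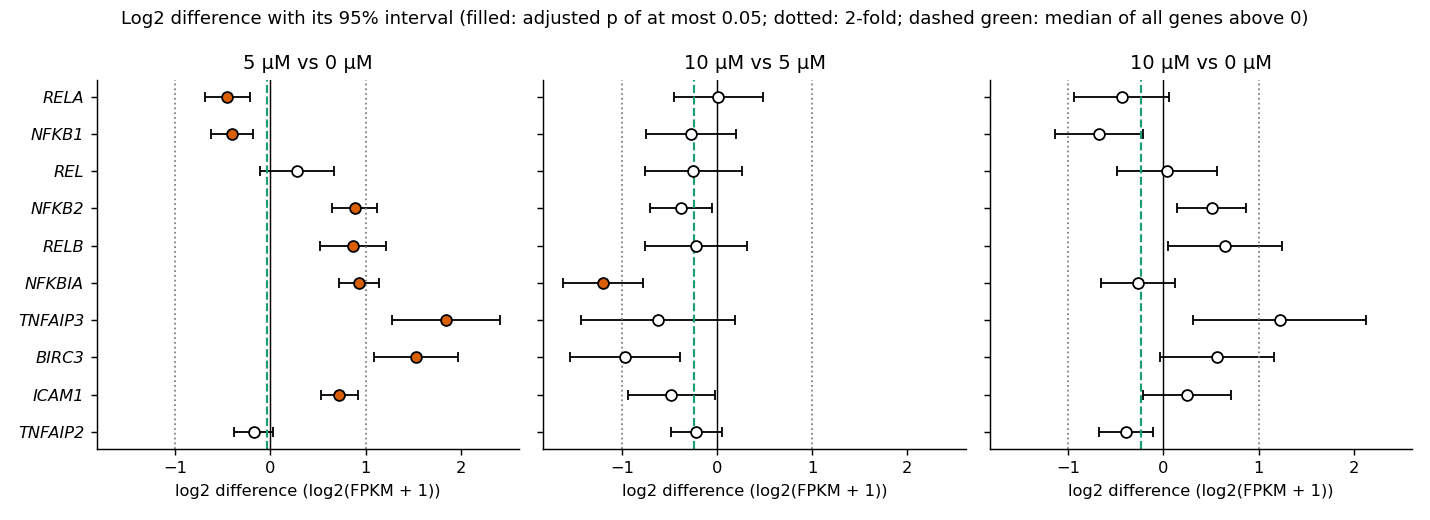
Log2 difference in log2(FPKM + 1) (horizontal axis) with its 95% interval for each gene in the 3 comparisons, filled where the adjusted p of limma was at most 0.05, with dotted lines at 2-fold and a dashed line at the median of all genes above 0. In 5 µM vs. 0 µM 8 genes are filled, from -0.45 (RELA) to 1.85 (TNFAIP3), in 10 µM vs. 5 µM only NFKBIA (-1.2), and in 10 µM vs. 0 µM none.

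The comparison of 10 µM vs. 5 µM asks what the higher concentration adds, and uses the same 5 µM cultures as the comparison above. NFKBIA was the 1 gene of the 10 that passed, and it fell. The median gene was lower by 0.24 on the log2 scale in this comparison, and NFKBIA fell by 1.2 (SE 0.18, ratio of mean FPKM 0.44, adjusted p = 0.0120, limma with Benjamini-Hochberg adjustment), or by 0.96 relative to that median. Over the 20085 genes tested, 4.82% were called lower and 0.129% higher, and without the 2-fold limit 5.85% and 0.319%. After median-of-ratios scaling NFKBIA stayed past the adjusted p but within 2-fold (-0.996 on the log2 scale, adjusted p = 0.00601, limma), and without 5 µM replicate 1, 2 or 3 its adjusted p by limma was 0.0521, 0.0667 and 0.0804. NFKBIA over RELA, which no scaling touches, was 0.431 times as high at 10 µM as at 5 µM in the group means and did not overlap (exact permutation p = 0.1, the smallest possible).

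The other 9 genes did not pass in this comparison. BIRC3 had a log2 difference of -0.97 (SE 0.24, adjusted p = 0.0661, limma with Benjamini-Hochberg adjustment), and without 10 µM replicate 2 it was called, with -1.18 (adjusted p = 0.0152, limma). Leaving out that culture also brought ICAM1 (adjusted p = 0.0185, log2 difference -0.68), NFKB2 (0.0287) and NFKB1 (0.0373) below the limit of limma, all lower and within 2-fold. With NFKBIA that made 5 of the 10 lower, where 19.9% of all genes then passed lower and 1.11% higher. NFKB2, NFKBIA, BIRC3 and TNFAIP2 were below every 5 µM culture at 10 µM, where 25.3% of all genes were wholly below and 4.37% wholly above. Relative to the median of all genes the differences were 0.25 for RELA, 0.02 for RELB, -0.03 for NFKB1, -0.14 for NFKB2, -0.24 for ICAM1, -0.38 for TNFAIP3 and -0.73 for BIRC3. For REL and TNFAIP2 they were -0.01 and 0.02. The sign of the RELA and RELB differences turned when 10 µM replicate 2 (RELA) or replicate 1 (RELB) was left out.

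In 10 µM vs. 0 µM, which shares its cultures with both comparisons above, 0 of the 10 genes passed an adjusted p of 0.05 by limma, although 5 had an unadjusted p under 0.05. Over the 18928 genes tested, 4.07% were called higher and 3.4% lower, and 5.39% and 9.71% without the 2-fold limit. TNFAIP3, NFKB2 and BIRC3 lay above every control, where 14.4% of all genes did so, and NFKB1 and TNFAIP2 below, where 26.7% did. The log2 differences were 1.22 for TNFAIP3 (SE 0.39, adjusted p = 0.0718), 0.51 for NFKB2 (SE 0.16, adjusted p = 0.0654) and -0.68 for NFKB1 (SE 0.20, adjusted p = 0.0596), all by limma with Benjamini-Hochberg adjustment.

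The scaling between libraries changed this result. The median gene was lower by 0.23 at 10 µM than in the control, and relative to it the differences were 1.46 for TNFAIP3, 0.88 for RELB, 0.80 for BIRC3, 0.74 for NFKB2, 0.48 for ICAM1 and -0.44 for NFKB1. After median-of-ratios scaling 6 of the 10 passed an adjusted p of 0.05 by limma, 5 higher, NFKB2 (0.0052), RELB (0.0234), TNFAIP3 (0.0299), BIRC3 (0.0306) and ICAM1 (0.0415), and 1 lower, NFKB1 (0.0464). Over all genes, 10.2% then passed higher and 9.67% lower. NFKBIA was not among them, with a difference of -0.03 after scaling (adjusted p = 0.88, limma) and an unscaled 95% interval from -0.66 to 0.12. The choice of cultures changed it too. With all 9 samples in one limma fit, NFKB2 (adjusted p = 0.0208) and TNFAIP3 (0.0271) passed higher and NFKB1 (0.0216) and TNFAIP2 (0.0188) lower, where 9.43% of all genes passed higher and 19.1% lower. Without 10 µM replicate 2, NFKB1 (adjusted p = 0.00515, limma), RELA (0.0209) and TNFAIP2 (0.0302) passed lower and none higher, where 28% of all genes passed lower and 6.69% higher. The coefficient of variation of the 10 genes ran from 0.311% to 19.7% at 5 µM and from 3.27% to 37.9% at 10 µM.

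The remaining pathway genes were taken from lists by role, which were written with earlier results of these data known. Of 15 other IκB proteins and feedback regulators, 14 were tested and TNIP3 was listed at 0. In 5 µM vs. 0 µM none of them passed 2-fold, 3 rose (NFKBIE, CYLD and ZC3H12A) and 2 fell (TNIP1 and TNIP2) within it, and their median log2 difference was 0.11, against -0.04 for all genes above 0 in all 6 cultures. Over all genes tested, 21.3% passed higher and 17.7% lower at any fold, so these counts do not set the list apart. NFKBIE, the gene of IκBε, rose by 0.70 (SE 0.21, adjusted p = 0.0410), CYLD, a deubiquitinase that restrains NF-κB, rose by 0.55 (SE 0.14, adjusted p = 0.0266), and TNIP1, a partner of A20, fell by 0.51 (SE 0.10, adjusted p = 0.0111), all by limma with Benjamini-Hochberg adjustment. BCL3 and NFKBIB did not pass. These names, and those of the next paragraph, were picked after their values were seen.

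Of 25 genes of the IKK complex and upstream signalling, 3 rose (IKBKG, MAP3K14 and MALT1) and 5 fell (CARD10, IRAK1, TAB1, TICAM1 and RBCK1) in 5 µM vs. 0 µM, all within 2-fold, and the list's median was 0.02. With 21.3% of all genes passing higher and 17.7% lower, these counts do not set the list apart. CARD10, a scaffold that links receptors to MALT1, fell by 0.92 (SE 0.08, adjusted p = 0.000496), and MALT1, a paracaspase, rose by 0.72 (SE 0.14, adjusted p = 0.00778, limma with Benjamini-Hochberg adjustment). IRAK1, a kinase of Toll-like and interleukin-1 receptors, fell by 0.82 at 5 µM (SE 0.12, adjusted p = 0.00283) and by 1.01 at 10 µM vs. 0 µM (SE 0.25, adjusted p = 0.0395), the only gene of this list called past 2-fold in the 3 comparisons (limma with Benjamini-Hochberg adjustment).

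Among 14 receptors that feed NF-κB, 5 were called higher in 5 µM vs. 0 µM, and 1 rose (NOD1, by 0.55) and 3 fell within 2-fold. Over all genes, 14.1% were called higher. Of the 5 receptors called, 4 were listed at 0 in every control. IL1R1, the interleukin-1 receptor, measured 5197, 3012 and 3194 FPKM in the control and 13232, 17620 and 16597 at 5 µM, a rise of 2.09 (SE 0.29, adjusted p = 0.00218, limma with Benjamini-Hochberg adjustment). TNFRSF1B, the second TNF receptor, was listed at 0 in all 3 controls and at 1556, 2216 and 2482 FPKM at 5 µM, an estimated 16 to 27 fragments. TLR2, TLR5 and NOD2, sensors of bacterial products, were also listed at 0 in the controls and had at most 1486 FPKM at 5 µM, which for NOD2 is an estimated 1 to 4 fragments, for TLR5 6 to 10 and for TLR2 5 to 16. TNFRSF1A, the main TNF receptor, fell by 0.59 (SE 0.06, adjusted p = 0.00101), LTBR by 0.43 (SE 0.07, adjusted p = 0.00385) and TNFRSF12A by 0.82 (SE 0.09, adjusted p = 0.00117), all by limma with Benjamini-Hochberg adjustment. At 10 µM vs. 5 µM NOD2 was called lower, being listed at 0 in all 10 µM cultures, and at 10 µM vs. 0 µM TLR5 was called higher, with 111 to 296 FPKM or an estimated 1 to 2 fragments. The library term estimated from the low values was 1 to 2.14 in the control, relative to control replicate 1. It was 2.29 to 2.57 at 5 µM and 1.27 to 2.01 at 10 µM. For NOD2, with an estimated 1 to 4 fragments at 5 µM, the listing at 0 in the other groups cannot be told apart from counting error. The same holds for the 1 to 2 fragments of TLR5 at 10 µM against 0 in the control. For TNFRSF1B, TLR2 and TLR5 at 5 µM, which had more fragments, the part of counting error was not tested. NOD1, TLR2, TLR5, NOD2, TNFRSF1A, LTBR and TNFRSF12A were named after their values were seen.

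Among the pathway lists, secreted and membrane-bound ligands had the largest share of calls in 5 µM vs. 0 µM. Of 23 ligands and cytokines among NF-κB targets, 22 were tested, 14 were called higher and none lower, where 14.1% and 2.17% of all genes were. Of 8 fibroblast and endothelial markers, described below, 5 were called higher too. The median over the 13 ligands above 0 in all 6 cultures was 1.68, against -0.04 for all such genes. It was 2.08 for 4 leukocyte markers and 2.06 for 4 fibroblast and endothelial markers above 0 in all 6. LTB, the membrane anchor of lymphotoxin and a ligand of LTBR, was listed at 0 in the control and at 11194, 8594 and 11893 FPKM at 5 µM, an estimated 20 to 31 fragments. CXCL5, a neutrophil attractant, was listed at 0 in the control and at 2118, 1931 and 1056 at 5 µM, an estimated 8 to 14 fragments. CSF2, a growth factor for myeloid cells, was listed at 0 in 2 controls and at 1250 in the other, and at 7210, 18676 and 10887 at 5 µM. That is an estimated 0 to 2 fragments in the control and 16 to 39 at 5 µM. The library term given above was higher in every 5 µM culture than in any control, and the part of counting error was not tested. In 10 µM vs. 5 µM 4 of the 22 ligands tested were called lower, where 4.82% of all genes were. LTB fell by 3.16 (SE 0.35, adjusted p = 0.00533), IL32, a proinflammatory cytokine, by 1.67 (SE 0.27, adjusted p = 0.0149), CSF1, the macrophage growth factor, by 1.42 (SE 0.24, adjusted p = 0.0185) and CCL20, an attractant of dendritic and T cells added here after its value was seen, by 1.28 (SE 0.25, adjusted p = 0.0281), all by limma with Benjamini-Hochberg adjustment.

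In 10 µM vs. 0 µM 9 of 21 ligands tested were called higher and none lower, where none of the 10 genes passed. Over all genes, 4.07% were called higher and 3.4% lower. CCL20 had a log2 difference of 3.08 (SE 0.30, adjusted p = 0.00366) and IL32 one of 3.07 (SE 0.36, adjusted p = 0.00575, limma with Benjamini-Hochberg adjustment). LTB measured 947, 1198 and 1415 FPKM at 10 µM, against 0 in every control, which is an estimated 1 to 2 fragments, so its calls at 10 µM rest on very few.

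Of 32 intracellular and surface targets, 10 were called higher and none lower in 5 µM vs. 0 µM, where 14.1% and 2.17% of all genes were. Another 4 rose and 2 fell within 2-fold. Of the 10, 8 were above 0 in all 6 cultures. The other 2, VCAM1 and MMP9, were listed at 0 in every control and rest on the few fragments given below. The median over the 23 above 0 in all 6 cultures was 0.48. TNFRSF9, a costimulatory receptor, rose by 2.10 (SE 0.57, adjusted p = 0.0297), PLAU, the urokinase, by 2.09 (SE 0.27, adjusted p = 0.00177) and PSMB9, an immunoproteasome subunit, by 1.68 (SE 0.30, adjusted p = 0.00645), all by limma with Benjamini-Hochberg adjustment. At 10 µM vs. 5 µM 3 were called lower, where 4.82% of all genes were. GADD45B, a stress response gene, fell by 1.64 (SE 0.22, adjusted p = 0.00900, limma with Benjamini-Hochberg adjustment). VCAM1 and MMP9, named after their values were seen, were listed at 0 in all 10 µM cultures. VCAM1 had an estimated 2 fragments and MMP9 1 to 8 in a 5 µM culture, too few to tell a rise or a fall from counting error. At 10 µM vs. 0 µM none of 29 tested passed the adjusted p of limma.

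**Figure D4:**
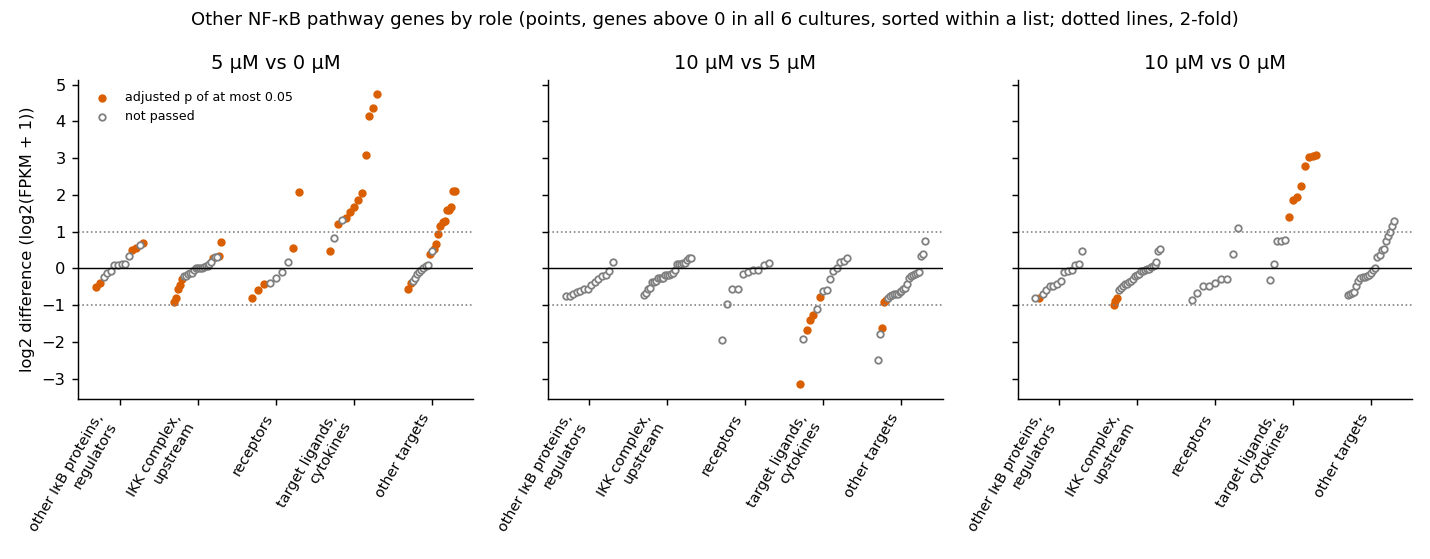
Log2 difference in log2(FPKM + 1) (vertical axis) of each gene above 0 in all 6 cultures of a comparison, by role in the pathway, filled where the adjusted p of limma was at most 0.05. Ligands and cytokines reach 4.74 (IL32) in 5 µM vs. 0 µM, and the regulators and the IKK complex lie within 2-fold, apart from IRAK1 (-1.01) in 10 µM vs. 0 µM.

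Markers of the labelled cell type and of other cells moved with the same comparison. All 11 colon epithelium markers were above 0 in every library, among them CDX2, VIL1 and KRT20, but their sum was 8.27e+07 to 9.91e+07 FPKM in the control, 3.48e+07 to 3.94e+07 for 5 µM and 2.73e+07 to 4.8e+07 for 10 µM. Of 8 leukocyte markers 5 to 7 were above 0, with sums of 160102 to 178912 FPKM in the control, 699438 to 748904 at 5 µM and 236781 to 399441 at 10 µM, most of it from CD68, a lysosomal protein that epithelial lines also express. The defining leukocyte gene PTPRC reached at most 983 FPKM, and the B cell gene MS4A1 was at 0 in all treated libraries. Of 8 fibroblast and endothelial markers 4 to 7 were above 0, with sums of 24450 to 35240 FPKM in the control, 89829 to 96485 at 5 µM and 46813 to 55116 at 10 µM. In 5 µM vs. 0 µM, 7 colon markers passed lower (limma), 2 passed higher (CDX1 and CDH17) and 2 did not pass (EPCAM and CDH1). Of the others, 3 leukocyte and 5 fibroblast and endothelial markers passed higher. Over all genes tested, 21.3% passed higher and 17.7% lower. The largest differences were 2.14 for CDX1, -1.75 for GPA33 and -1.65 for KRT8 among the colon markers, 3.94 for ITGAM and 2.42 for CD68 among the leukocyte markers, and 2.78 for VWF, 2.53 for COL1A1 and 1.59 for PECAM1 among the others, counting genes with a mean of at least 1000 FPKM. The part of these markers in the differences above was not tested. The FPKM values of a library summed to between 3.69e+09 and 5.91e+09, and 16373 to 18957 symbols were above 0.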

How the data were processed

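Per the methods of the study, reads were aligned to hg19 with TopHat, which the submitters' processing notes also name, and FPKM values per gene were computed with Cufflinks. The deposited files hold the authors' FPKM values for 24934 entries (23284 symbols, with the 543 on more than 1 entry summed). The genes and lists were chosen with earlier results of these data known. Values were taken as log2(FPKM + 1), and genes whose largest value reached 10 were tested in limma 3.58.1 (R 4.3.3, eBayes with an intensity trend), on the 6 cultures of each comparison, with Benjamini-Hochberg adjustment. On this scale that limit is low, as VCAM1 at 218 to 238 FPKM was an estimated 2 fragments. Genes with very few fragments were thus tested and are part of the shares over all genes. Genes were called at an adjusted p of at most 0.05 and more than 2-fold. The fit was tested on simulated data. Exact permutation tests were 2-sided.

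All 10 genes were reported. From the other lists, calls were counted, and up to 3 called genes with a mean of at least 1000 FPKM and the largest differences were named. For each of the 10 genes, the symbol with the highest Pearson correlation was named. Depth per library is not given in the files, and the methods of the study give only a range of reads over the samples. Low values stepped in whole fragments at short microRNA genes (46 of 46 values within 0.01 of a whole number), from which fragments were estimated. Positions are from GENCODE on GRCh37. The alternatives were another pseudocount, filter, scaling, fit, entry rule, replicate block and leaving out each culture.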

Additional observations from a re-analysis of the deposited data

How the results depend on the processing

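Of the differences of the 10 genes under each alternative, 401 kept their direction and their call, 10 gained a call, 4 lost one and 5 turned in sign. A call took both the adjusted p and the 2-fold limit, except in the alternative without that limit, where the adjusted p was enough. That alternative gave the gained calls of NFKB1, NFKB2, RELA, RELB and ICAM1 in 5 µM vs. 0 µM, and NFKBIA gained a call there too. The adjusted p of limma alone crossed 0.05 in 26 of 390 fits, which leave out that alternative, upward in 8 and downward in 18. The main counts were 2818 genes higher and 436 lower for 5 µM vs. 0 µM, 26 and 969 for 10 µM vs. 5 µM, and 771 and 644 for 10 µM vs. 0 µM. Without the 2-fold limit they were 4263 and 3553 for 5 µM vs. 0 µM (6 of the 10 genes higher and 2 lower), 64 higher for 10 µM vs. 5 µM and 1837 lower for 10 µM vs. 0 µM. After median-of-ratios scaling, 55 genes were higher and 0 of the 10 lower in 10 µM vs. 5 µM, and 284 genes were lower and 1 of the 10 (TNFAIP3) higher in 10 µM vs. 0 µM. Without the intensity trend 16 genes were higher in 10 µM vs. 5 µM and 278 lower in 10 µM vs. 0 µM. With all 9 samples in one fit 1174 genes were higher in 10 µM vs. 0 µM, 1 of the 10 (TNFAIP3) among them. The causes were not tested.

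Leaving out each culture in turn gave 12 to 64 genes higher and 176 to 1873 lower in 10 µM vs. 5 µM, with 0 to 2 of the 10 lower. The 2, NFKBIA and BIRC3, came without 10 µM replicate 2, which also gave the 1873. In 10 µM vs. 0 µM it gave 337 to 819 genes higher and 165 to 1500 lower. Differences that turned in sign were RELB (0.036 without 10 µM replicate 1, with a range from -0.41 to 0.036 over the cultures left out) and RELA (-0.20 without 10 µM replicate 2, from -0.20 to 0.17) in 10 µM vs. 5 µM, and REL (-0.11, -0.006 and -0.08 without 10 µM replicates 1 and 2 and control replicate 3, from -0.11 to 0.22) in 10 µM vs. 0 µM. NFKBIA passed 2-fold in 5 µM vs. 0 µM without 5 µM replicate 1 (1.01). In 5 µM vs. 0 µM, NFKB2, RELB, NFKBIA, TNFAIP3, BIRC3 and ICAM1 kept an adjusted p of at most 0.05 by limma in 13 of 13 alternatives.

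Under a replicate block 11 genes were higher and 407 lower in 10 µM vs. 5 µM, and the calls of the 10 genes were the same. Same-numbered cultures correlated between -0.07 and 0.09 in their deviations, and differently numbered ones between -0.16 and 0.10. The values thus gave no sign of pairing. They cannot exclude that same-numbered cultures were handled together, which the labels do not state. The few cultures and the unknown depth of each library limit precision, above all for TNFAIP3.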

Other observations

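Outside the pathway lists, the gene whose FPKM followed each of the 10 most closely was picked from 7583 candidates by Pearson correlation of the values over the 9 cultures, which share libraries and fall into 3 concentrations, so the coefficients are a description. For NFKB2 it was MX2, an interferon-induced GTPase (r = 0.996), and for RELB it was IFITM3, an interferon-induced membrane protein (r = 0.975). For the canonical subunits they were AP2B1 for NFKB1 (r = 0.996) and C1orf172 for RELA (r = 0.990). For the targets they were WIPI1 for NFKBIA (r = 0.990), TTL for TNFAIP3 (r = 0.976), PRSS23 for BIRC3 (r = 0.993), ABHD16A for ICAM1 (r = 0.992) and RNF146 for TNFAIP2 (r = 0.970). REL had the weakest likeness, with BRWD1 (r = 0.861).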
